A study of Mus musculus with 36 samples.

Results

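The 6 genes described here were 5 members of the alpha-arrestin family, Txnip, Arrdc1, Arrdc2, Arrdc3 and Arrdc4, and Mlxip, which encodes the transcription factor MondoA. They were taken from a named list out of 26709 genes in the RNA table. Txnip and Arrdc3 were selected on their strong falls after stimulation in these same libraries, so their RNA values are given below as a description without a test. Arrdc1, Arrdc2, Arrdc4 and Mlxip were chosen as relatives and as the regulator, and they were tested in a fit across the whole table. All 6 genes were among the 16209 genes with a mean of at least 10 normalised read counts.

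Alpha-arrestins are adaptor proteins with an arrestin fold that bring membrane proteins to ubiquitin ligases of the Nedd4 family, which mark the cargo for internalisation. Txnip also binds thioredoxin, and it promotes the removal of glucose transporters from the cell surface. MondoA, together with its partner Mlx, activates Txnip and Arrdc4 through carbohydrate response elements in their promoters when sugar phosphates accumulate. Neurons are strongly dependent on glucose uptake and glycolysis, and firing raises that demand.

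The libraries came from primary cortical neurons of CD-1 mouse embryos at embryonic day 15, used after 7 days in culture. All cultures, controls included, were first silenced for 2 h with the NMDA receptor antagonist AP-5 (100 µM) and the sodium channel toxin TTX (1 µM). Stimulated cultures then received BDNF at 10 ng/ml or a depolarising dose of KCl (55 mM) for 1, 6 or 10 h. BDNF is a neurotrophin that acts through the TrkB receptor. Control cultures stayed silenced for 3, 8 or 12 h in all. Per the study's methods, KCl was added as a salt buffer straight into the culture medium, which diluted it. No such addition is described for the other cultures, so effects of depolarisation and of the diluted medium cannot be told apart. Those methods do not say whether AP-5 and TTX were removed at stimulation. Each of the 9 groups had 2 RNA-seq libraries and 2 ATAC-seq libraries, and the 6 control libraries of an assay were pooled as the reference. All 6 comparisons with controls therefore share the same control libraries.

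The recovered RNA reads ranged from 8.51 to 36.7 M a library with a median of 11.6 M, and the counts in ATAC-seq peaks from 1.24 to 6.24 M with a median of 3.55 M. No gene was called between control times by limma (0 of 16209, 0%, at 6 h and 0%, at 10 h, against 1 h), while 164 and 181 genes had an unadjusted p under 0.05, and edgeR and DESeq2 on the recovered reads called 0 as well, with 236 and 193 such genes in edgeR and 54 and 42 in DESeq2. None of the 4 tested members had an unadjusted p under 0.05 in either of these control comparisons. The summed level of 7 of 7 neuron markers was 55105 to 61449 normalised read counts in controls, 55817 to 62759 with BDNF and 52928 to 66362 with KCl, and 6 of 6 astrocyte markers summed to 12047 to 16891, 11057 to 15774 and 9971 to 17380. The 5 cycling progenitor markers summed to 8612 to 11923 in controls, 8092 to 10382 with BDNF and 7104 to 12478 with KCl. For the 7 oligodendrocyte lineage markers the sums were 5964 to 6453, 5661 to 6803 and 4420 to 7468. The 4 excitatory neuron markers summed to 4692 to 5237, 4372 to 5506 and 4907 to 6080. Endothelial cell markers summed to at most 84.3, with Cldn5 and Flt1 under 10. The 6 microglia markers summed to at most 197.8, with P2ry12 under 10. The 4 inhibitory neuron markers were higher in every stimulated library, at 6040 to 7436 in controls, 8357 to 10225 with BDNF and 8553 to 11491 with KCl, and their part in the results below was not tested. In such bulk cultures, fewer cells of a type and less RNA per cell cannot be told apart.

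For Txnip, Arrdc3 and Arrdc4, the 3 members with the largest falls in RNA, the 250 bases before the RefSeq start (GRCm38.p6) are shown 5′ to 3′, with the matches to the searched motifs in capitals. The promoters lie at chr3:96557707-96557956 on the plus strand for Txnip, at chr13:80883134-80883383 on the plus strand for the first Arrdc3 start, and at chr7:68749239-68749488 on the minus strand for Arrdc4.
Txnip: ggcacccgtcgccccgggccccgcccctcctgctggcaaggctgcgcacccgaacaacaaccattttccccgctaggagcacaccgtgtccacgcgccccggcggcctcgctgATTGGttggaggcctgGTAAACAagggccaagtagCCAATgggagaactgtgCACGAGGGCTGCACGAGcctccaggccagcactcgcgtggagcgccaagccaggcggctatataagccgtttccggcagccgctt
Arrdc3: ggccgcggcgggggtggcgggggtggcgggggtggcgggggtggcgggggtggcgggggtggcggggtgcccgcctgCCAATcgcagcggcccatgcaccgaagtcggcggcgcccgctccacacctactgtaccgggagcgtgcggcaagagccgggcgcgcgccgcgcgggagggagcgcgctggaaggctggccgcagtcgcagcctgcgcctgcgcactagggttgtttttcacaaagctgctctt
Arrdc4: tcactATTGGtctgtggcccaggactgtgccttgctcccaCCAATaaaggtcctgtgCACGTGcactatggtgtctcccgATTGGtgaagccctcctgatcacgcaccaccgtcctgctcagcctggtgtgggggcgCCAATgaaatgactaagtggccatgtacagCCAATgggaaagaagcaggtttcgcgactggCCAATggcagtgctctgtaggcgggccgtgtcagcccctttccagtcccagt
Motifs were searched on both strands of 32851 promoter windows of 300 bases, from 250 before to 50 after each start. In Txnip, 2 copies of CACGNG with 5 bases between them, the arrangement of a carbohydrate response element, ran from base -85 to base -69 from the start, and 16 windows (0.0487%) held such a pair. Txnip also held TGTTTAC, the core letters of a FOXO site, in reverse at -121 to -115, as did 3.65% of windows, and 2 copies of CCAAT. Arrdc4 held no such pair of CACGNG in its window, and no other form of the carbohydrate response element was searched. It held the E-box CACGTG at -193 to -188, found in 7.15% of windows, and 6 copies of CCAAT, a motif found in 37.4% of windows. The first Arrdc3 promoter held a single CCAAT and none of the other letters. TGACGTCA, the full cAMP response element found in 1.79% of windows, and TGACTCA, the AP-1 element found in 5.2%, were in none of the member windows. A match is a description of the letters and not evidence of binding.

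Txnip (chr3:96557957-96561883), which lowers glucose uptake, was low in every stimulated library. The 6 controls ranged from 519 to 663 normalised read counts with a median of 623. At 1, 6 and 10 h the BDNF libraries held 199 and 179, 185 and 181, and then 258 and 251. At those times the KCl libraries held 61.7 and 68.4, 59.97 and 113, and then 84.3 and 117. All 12 stimulated libraries lay below the lowest control, and all KCl libraries lay below all BDNF libraries. The log2 fold change against the controls, on the log2(value + 1) scale, was -1.69 ± 0.16 (SE), -1.74 and -1.26 with BDNF at 1, 6 and 10 h, or 30.8%, 29.8% and 41.4% of the control mean of 615 ± 51.0 (SD, n = 6). With KCl it was -3.22, -2.88 and -2.62 with the same SE, or 10.6%, 14.1% and 16.3% of the control mean. The mean was thus lowest with KCl at 1 h and highest with BDNF at 10 h among the stimulated groups, although the KCl groups next to each other in this order overlapped. The rise from KCl 1 h to KCl 6 h (log2 fold change 0.34) turned to -0.11 without the second KCl 6 h library and was 0.79 without the first. The KCl 1 h libraries rested on 50 and 64 reads. The antisense gene Gm15441 shares 606 exon bases (19.4%) with Txnip, and it held at most 6.58 normalised read counts in any library. How strand was used in counting is not given in the sources used here.

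**Figure D1:**
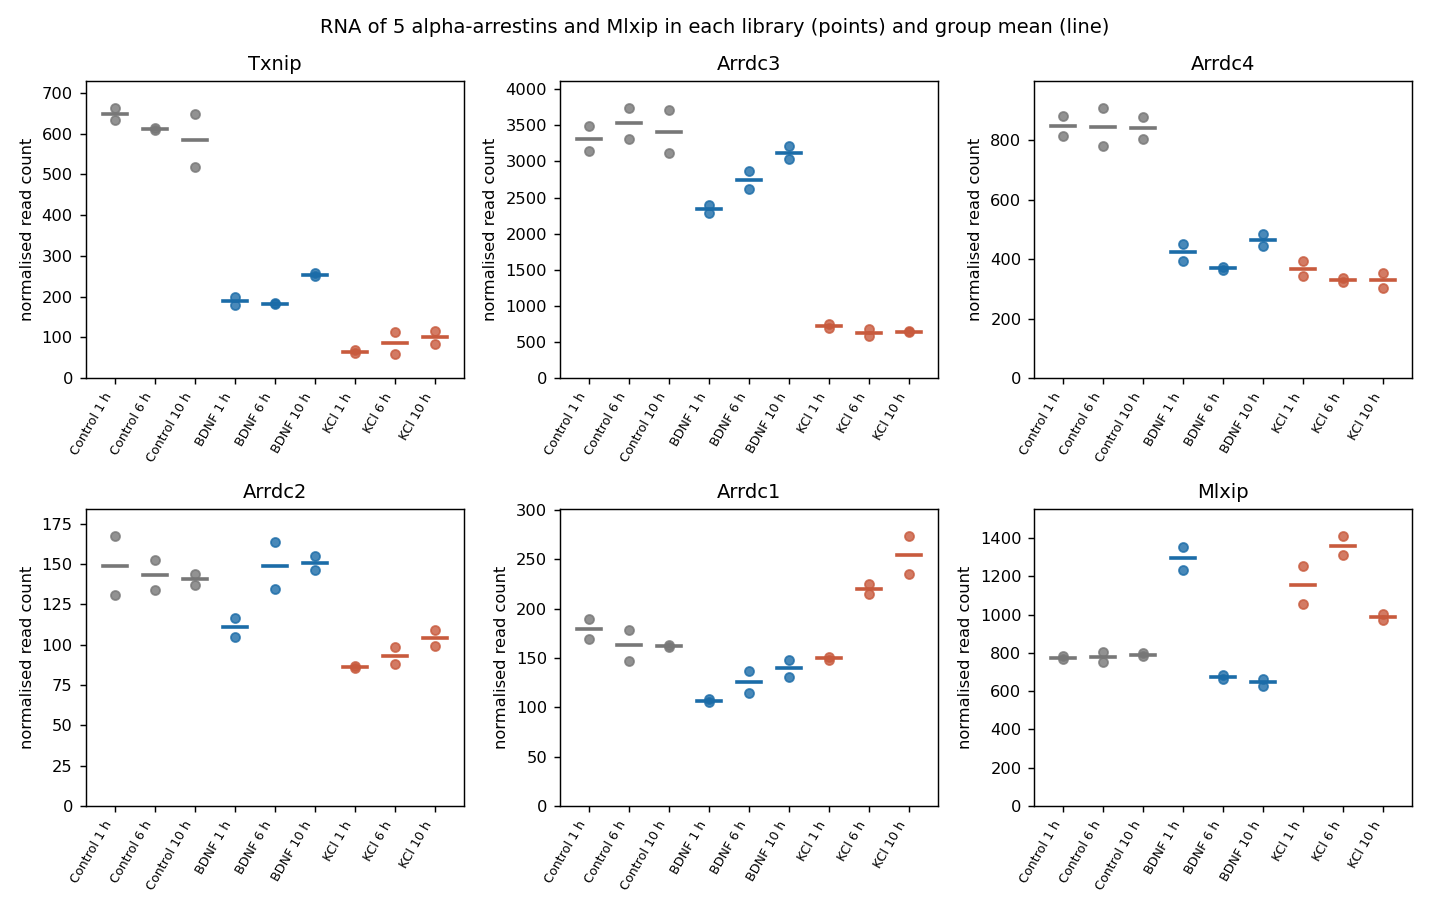
Normalised read counts (y axis, from 0) of the 6 genes in each of the 18 RNA libraries (points), by group (x axis), with the group mean as a line. Txnip and Arrdc4 lie below all controls in every stimulated library, Arrdc3 stays at 580 to 746 with KCl while 1 of its BDNF 10 h libraries lies within the control range, and Mlxip lies above all controls with BDNF at 1 h and with KCl at all 3 times.

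Arrdc3 (chr13:80883384-80896042), an adaptor known for the trafficking of beta-adrenergic receptors, was the most abundant member in the controls, and its levels with BDNF and with KCl lay far apart. The 6 controls ranged from 3113 to 3738 normalised read counts with a median of 3400. With BDNF the pairs of libraries held 2400 and 2291, 2872 and 2621, and 3036 and 3210 in order of time, and at 10 h 1 library lay within the range of the controls and 1 below it. With KCl the pairs held 694 and 746, 580 and 683, and 648 and 644, all below every other library. The log2 fold change against the controls was -0.54 ± 0.077 (SE), -0.31 and -0.13 with BDNF at 1, 6 and 10 h. With KCl it was -2.24, -2.43 and -2.40 with the same SE. Arrdc3 therefore returned towards the control level with BDNF, from 68.7% to 91.4% of the control mean of 3417 ± 273 (SD, n = 6), and stayed at 21.1%, 18.5% and 18.9% with KCl.

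Arrdc4 (chr7:68736995-68749241) is the relative closest to Txnip in its known control by MondoA and also lowers glucose uptake. Its 6 controls ranged from 779 to 908 normalised read counts with a median of 846. In order of time, BDNF libraries held 452 and 393, 363 and 374, and 444 and 485, and KCl libraries held 342 and 395, 338 and 324, and 302 and 355. No stimulated library overlapped the controls. Arrdc4 fell in all 6 comparisons, with a log2 fold change of -0.998 ± 0.086 (SE), -1.19 and -0.86 with BDNF at 1, 6 and 10 h, and of -1.20, -1.34 and -1.36 with KCl at the same times (limma, highest adjusted p = 1.28e-07 with BDNF at 10 h). Each of these 6 calls held in all 15 alternatives tried, from other tools and scalings to leaving out any library.

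Arrdc2 (chr8:70835129-70839720), an alpha-arrestin of less studied function, fell with KCl at each time and with BDNF at 1 h. Controls ranged from 131 to 167 normalised read counts with a median of 140.5. In order of time, KCl libraries held 85.2 and 86.6, 98.3 and 88.0, and 109 and 99.1. BDNF libraries held 105 and 117, 134 and 164, and 155 and 146. The KCl libraries lay below every control, whereas BDNF libraries at 6 and 10 h overlapped the controls. The log2 fold change was -0.74 ± 0.12 (SE), -0.62 and -0.47 with KCl (limma, highest adjusted p = 0.0031) and -0.37 with BDNF at 1 h (adjusted p = 0.021). Without the first BDNF 1 h library that last adjusted p was 0.24. With BDNF at 6 and 10 h the log2 fold change was 0.04 and 0.07, with 95% intervals of -0.19 to 0.28 and -0.17 to 0.30.

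Arrdc1 (chr2:24925352-24935252), an adaptor that takes part in the release of vesicles from the plasma membrane, moved in opposite directions with BDNF and with KCl. Controls ranged from 147 to 189 normalised read counts with a median of 166. BDNF libraries, in order of time, held 105 and 108, 137 and 114, and 148 and 131. KCl libraries held 148 and 151, 214 and 225, and 274 and 235. The BDNF libraries at 1 and 6 h lay below every control and the KCl libraries at 6 and 10 h above every control. Arrdc1 fell with BDNF at 1, 6 and 10 h, with log2 fold changes of -0.65 ± 0.11 (SE), -0.42 and -0.26 (limma, highest adjusted p = 0.075) and rose with KCl by 0.39 at 6 h and 0.60 at 10 h (highest adjusted p = 0.0051), while KCl at 1 h gave -0.16 (adjusted p = 0.24). Without the second library of the BDNF groups the adjusted p was 0.18 at 6 h and 0.46 at 10 h. The call at 10 h held in 8 of 15 alternatives. It ended with controls of the same time (-0.22, limma adjusted p = 0.30), with DESeq2 (adjusted p = 0.11) and with no filter on low values (limma adjusted p = 0.12). That call also ended without either control 1 h library (adjusted p = 0.12 and 0.10) or the second control 6 h library (adjusted p = 0.12).

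Mlxip (chr5:123394798-123457932), the MondoA gene, rose with both stimuli at 1 h and then differed between them. Controls ranged from 751 to 806 normalised read counts with a median of 782. In order of time, BDNF libraries held 1235 and 1355, 682 and 662, and 665 and 627. KCl libraries held 1252 and 1054, 1310 and 1412, and 970 and 1002. BDNF libraries thus lay above all controls at 1 h and below all controls later, and all 6 KCl libraries lay above all controls. The log2 fold change with BDNF was 0.73 ± 0.068 (SE), -0.22 and -0.28 at 1, 6 and 10 h, and with KCl it was 0.56, 0.80 and 0.34 (limma, highest adjusted p = 0.017). Without the second BDNF 6 h library the adjusted p at BDNF 6 h was 0.15. Gm15747, an antisense gene that shares 267 exon bases (3.21%) with Mlxip, held at most 4.15 normalised read counts.

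In counts, limma called Mlxip higher and the other 3 tested members lower after 1 h of BDNF, where 21.3% of all genes were called higher and 19% lower. After 6 h none was higher and 3 were lower (22.1% and 21.1% of all genes), and the same counts held after 10 h (21.1% and 19.5%). With KCl 1 was higher and 2 were lower at 1 h (26.5% and 28.2%), 2 and 2 at 6 h (33.4% and 33.1%), and 2 and 2 at 10 h (29% and 28.2%). With 4 genes, these counts are read as the values of single genes and not as a property of the family.

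**Figure D2:**
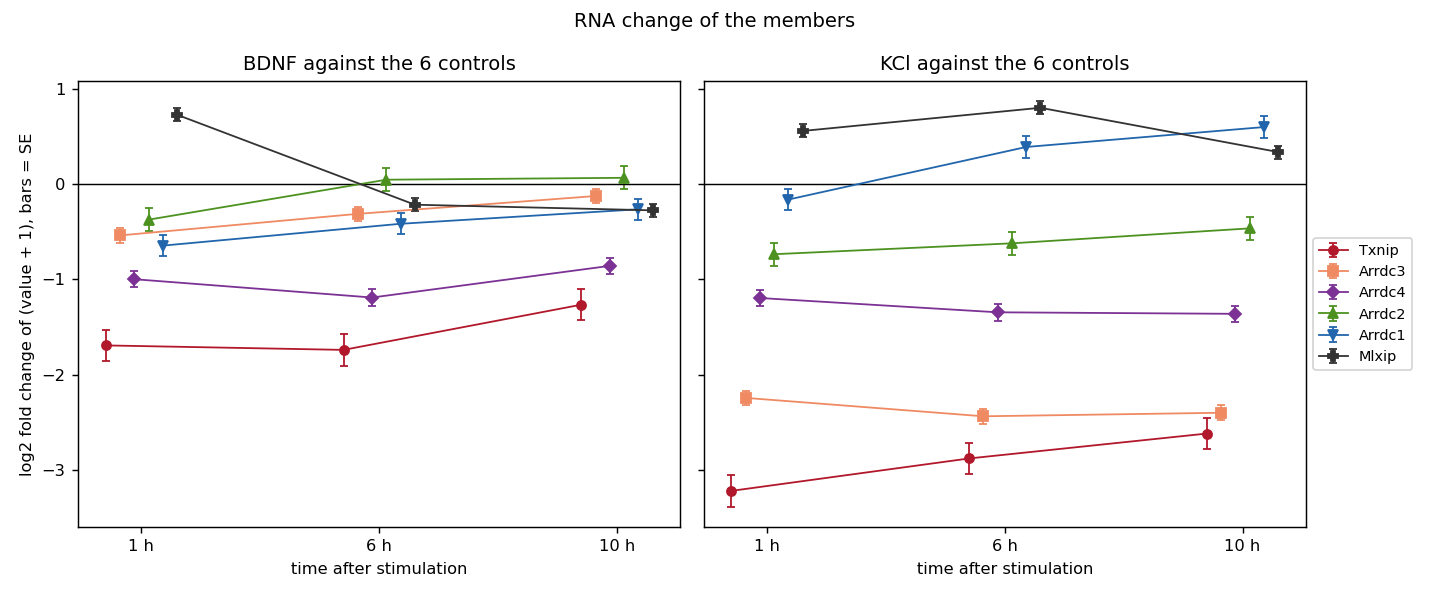
Log2 fold change on the log2(value + 1) scale (y axis) of the 6 genes at 1, 6 and 10 h (x axis) against the 6 pooled controls, for BDNF on the left and KCl on the right, with bars of 1 SE. Txnip and Arrdc3 were selected on these falls and are drawn as a description. Arrdc4 lies between -0.86 and -1.36 in both panels, and Mlxip and Arrdc1 are above 0 only with KCl at 6 and 10 h and, for Mlxip, also with both stimuli at 1 h.

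The direct comparison of BDNF with KCl at the same time showed where the stimuli differed. Among the 4 tested members limma called 2 at 1 h, 3 at 6 h and 4 at 10 h, while 42.8%, 57.3% and 45% of all genes were called. Arrdc1 was lower with BDNF than with KCl at each time (log2 difference -0.48, -0.81 and -0.86, highest adjusted p = 0.0082), and Arrdc2 was higher (0.36, 0.67 and 0.53). The Arrdc2 difference at 1 h had an adjusted p of 0.062 in limma and of 0.17 in DESeq2, and the call ended without either KCl 1 h library (adjusted p = 0.16 and 0.14) or the second BDNF 1 h library (adjusted p = 0.28). Arrdc4 differed by 0.20 at 1 h (95% interval -0.009 to 0.40) and 0.15 at 6 h (-0.05 to 0.36), neither called with all libraries, and was higher with BDNF at 10 h by 0.50 ± 0.11 (SE, limma adjusted p = 0.00069). Without the second KCl 1 h or the second BDNF 1 h library the 1 h difference of Arrdc4 was called (adjusted p = 0.080 and 0.091). Mlxip differed by 0.17 at 1 h (95% interval 0.007 to 0.34, limma adjusted p = 0.12, and 0.017 without the first KCl 1 h library) and was lower with BDNF at 6 h by -1.02 and at 10 h by -0.61 (highest adjusted p = 6.09e-06). For the selected genes the same log2 difference, given without a test, was 1.53, 1.14 and 1.35 for Txnip and 1.70, 2.12 and 2.27 for Arrdc3. The 6 h value of Txnip was 0.68 without the first KCl 6 h library and 1.59 without the second. BDNF levels of Txnip were therefore 2.88, 2.201 and 2.55 times those with KCl, and those of Arrdc3 3.26, 4.35 and 4.83 times.

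The later time points were also compared with 1 h within a stimulus. With BDNF, limma called 2 of the 4 tested members at 6 h (33.6% of all genes) and 3 at 10 h (33.9%), and with KCl 2 at 6 h (59.6%) and 2 at 10 h (54.5%). Mlxip fell from 1 h to 6 h with BDNF by 0.94 on the log2 scale and to 10 h by 1.00 (limma, highest adjusted p = 2.36e-08), whereas with KCl it rose by 0.24 to 6 h (adjusted p = 0.019) and ended 0.22 below the 1 h value at 10 h (adjusted p = 0.034). Leaving out either the second KCl 1 h library or the second KCl 6 h library ended the call of Mlxip at KCl 6 h (adjusted p = 0.31 and 0.12), and leaving out the first library of KCl 1 h or KCl 10 h ended that at 10 h (adjusted p = 0.42 and 0.14). Arrdc1 rose with KCl by 0.55 to 6 h and 0.76 to 10 h (limma, highest adjusted p = 0.0019) and with BDNF by 0.38 to 10 h (adjusted p = 0.044). Arrdc2 rose with BDNF by 0.42 to 6 h and 0.44 to 10 h (limma, highest adjusted p = 0.041). All 3 of these calls with BDNF ended without the first BDNF 1 h library, with an adjusted p of 0.17 for Arrdc1, 0.23 for Arrdc2 at 6 h and 0.20 for Arrdc2 at 10 h. That of Arrdc1 also ended without the second BDNF 1 h library (0.12) or the first BDNF 10 h library (0.25), and those of Arrdc2 without the second BDNF 6 h library (0.34) and the first BDNF 10 h library (0.15). Arrdc4 was called in none of these comparisons with all libraries, with log2 differences between -0.19 and 0.14, while its fall with KCl over 1 h was called without the first KCl 1 h library (adjusted p = 0.0998 to 6 h and 0.088 to 10 h) and, to 10 h, without the second KCl 10 h library (adjusted p = 0.076).

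Levels of different genes were compared per kilobase of exon. In controls Arrdc3 stood at 545 ± 43.5 normalised read counts per kilobase (SD, n = 6), followed by Arrdc4 at 209 ± 12.8, Txnip at 197 ± 16.3, Mlxip at 93.9 ± 2.42, Arrdc1 at 66.9 ± 5.87 and Arrdc2 at 44.6 ± 4.29. Arrdc4 and Txnip lay within the spread of the libraries. With KCl at 1 h Mlxip, at 139 ± 16.8 (SD, n = 2), was the highest, Arrdc3 stood at 115 ± 5.91 and Txnip at 20.8 ± 1.52 was the lowest. Arrdc5, a further alpha-arrestin, was under the mean of 10 normalised read counts and was not tested.

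Across the 18 RNA libraries, which share the stimulated and control groups as their source of variation, Pearson's r of log2(value + 1) was 0.93 between Txnip and Arrdc4, 0.89 between Txnip and Arrdc3, and 0.74 between Arrdc3 and Arrdc4. Mlxip ran opposite to Arrdc2 (r = -0.84) and to Txnip (r = -0.61), and Arrdc1 was close to unrelated to Txnip (r = -0.18). Among 13123 genes with a mean of at least 50, the 5 most like Txnip were Zfp81 (r = 0.95), Wdr76, 4930402H24Rik, Cdc26 and Glt8d1 (r = 0.94). The 5 most like Arrdc3 were Gpcpd1 (r = 0.98), Rsrc2, Xpo1, Wnt7a and Zfp280c (r = 0.97). These values describe the shape of the profiles over groups and carry no test.

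Genes that work with the members were read from 6 lists of 88 genes in all, also chosen with earlier results known. In the Mondo, Mlx and Max network of sugar- and growth-responsive factors, 2 of 12 genes rose and 4 fell after 1 h of BDNF, and 3 rose and 4 fell after 6 h of KCl. Over all genes, 21.3% and 19% were called higher and lower in the first comparison, and 33.4% and 33.1% in the second. With BDNF, 3 list genes rose and 6 fell at 6 h, and 1 rose and 7 fell at 10 h. The shares of all genes there were 22.1% and 21.1%, and 21.1% and 19.5%. With KCl, 3 rose and 5 fell at 1 h, and 2 rose and 6 fell at 10 h. The shares of all genes there were 26.5% and 28.2%, and 29% and 28.2%. Mycl, a Myc relative, had a control mean of 1414 ± 80.9 normalised read counts (SD, n = 6) and fell with BDNF at 6 h to 567 ± 32.3 (SD, n = 2; log2 fold change -1.31, limma adjusted p = 1.67e-12), whereas with KCl it rose at 1 h (0.27, adjusted p = 0.0014) and fell at 6 and 10 h (-0.55 and -0.86, highest adjusted p = 2.36e-07). Mlxipl, the ChREBP gene related to Mlxip, was scarce, at 26.0 ± 4.73 in controls and 7.49 ± 0.86 with KCl at 6 h (log2 fold change -1.66, limma adjusted p = 5.60e-06). Mlx was named here for its role as the partner of MondoA, outside the naming rule. With KCl its log2 fold change was -0.67 at 1 h and 0.87 and 0.81 at 6 and 10 h (limma, highest adjusted p = 2.57e-06). With BDNF it was 0.06 at 1 h (limma adjusted p = 0.63) and 0.35 and 0.32 at 6 and 10 h (highest adjusted p = 0.0099).

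In the thioredoxin system, which Txnip binds, 4 of 14 genes were higher and none lower after 1 h of BDNF, and 8 were higher and 4 lower with KCl at 6 h. These counts stand beside the same shares over all genes, 21.3% and 19%, and 33.4% and 33.1%. Srxn1, which restores oxidised peroxiredoxins, rose with BDNF at 1 h from 261 ± 26.1 (SD, n = 6) to 1258 ± 5.02 (SD, n = 2; log2 fold change 2.27, limma adjusted p = 7.29e-15), against 300 ± 2.79 with KCl at 1 h. Txnrd3, a thioredoxin reductase, fell with KCl at 6 h from 150 ± 25.1 to 44.9 ± 3.67 (log2 fold change -1.70, limma adjusted p = 4.36e-08). Txn1, the cytosolic thioredoxin that Txnip binds, was named outside the rule. With BDNF it rose by 0.28, 0.44 and 0.48 on the log2 scale at 1, 6 and 10 h (limma, highest adjusted p = 0.020). With KCl at 1 h it changed by 0.16 and was not called (limma adjusted p = 0.15).

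In glucose uptake and glycolysis, limma called 12 of 21 tested genes higher and 1 lower after 1 h of BDNF. After 1 h of KCl, 13 were higher and 3 lower. Over all genes, 21.3% and 26.5% were called higher and 19% and 28.2% lower in these comparisons. The median log2 fold change of the 21 genes was 0.18 and 0.30, beside 0.00 over all genes tested in both comparisons. After 6 h, 8 were higher and 1 lower for BDNF and 11 and 4 for KCl, and after 10 h the counts were 10 and 0 for BDNF and 12 and 3 for KCl. The shares of all genes called higher were 22.1% and 33.4% at 6 h and 21.1% and 29% at 10 h. Those called lower were 21.1% and 33.1% at 6 h and 19.5% and 28.2% at 10 h. Slc2a3, the neuronal glucose transporter, rose from 1385 ± 102 (SD, n = 6) to 5466 ± 180 with BDNF at 1 h (log2 fold change 1.98, limma adjusted p = 1.64e-14) and to 3433 ± 597 with KCl at 1 h (1.301, adjusted p = 1.50e-11). Slc2a1, a transporter whose surface level Txnip is known to limit, rose from 245 ± 55.1 to 732 ± 35.4 with BDNF at 1 h and to 679 ± 117 with KCl at 6 h (log2 fold change 1.60 and 1.49, limma, highest adjusted p = 2.10e-06). With KCl at 1 h Slc2a1 was at 287 ± 38.9 and was not called (limma adjusted p = 0.26). Slc2a8 and Slc2a4 of the same list, given outside the naming rule, fell with KCl at 1 h (-1.22 and -1.06, limma, highest adjusted p = 0.00050). With BDNF at 1 h Slc2a8 fell (-0.36, limma adjusted p = 0.022) and Slc2a4 was not called (-0.37, adjusted p = 0.23).

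Among the Nedd4-family ligases and their adaptors, 3 of 11 genes were higher and 1 lower after 1 h of BDNF, 3 and 6 with BDNF at 10 h, and 5 and 4 with KCl at 6 h. Over all genes 21.3% and 19%, 21.1% and 19.5%, and 33.4% and 33.1% were called higher and lower in these comparisons. Nedd4l fell with BDNF at 6 h from 2121 ± 78.4 (SD, n = 6) to 1169 ± 53.9 (SD, n = 2; log2 fold change -0.86, limma adjusted p = 9.03e-10), and Hecw2 rose with KCl at 10 h from 282 ± 33.7 to 577 ± 51.1 (1.04, adjusted p = 1.46e-07). Of the beta-arrestins, receptor cargo and ESCRT genes, 2 of 7 tested were higher and 0 lower after 1 h of BDNF. With KCl at 6 h, 5 were higher and 0 lower. Over all genes 21.3% and 33.4% were higher and 19% and 33.1% lower in these comparisons. Adrb1, a beta-adrenergic receptor, rose with BDNF at 1 h from 137 ± 13.1 to 230 ± 23.8 (log2 fold change 0.74, limma adjusted p = 0.0025) but fell with KCl at 1 h to 98.7 ± 36.8 (-0.51, adjusted p = 0.020). It then rose with KCl at 6 and 10 h (0.73 and 0.83, limma, highest adjusted p = 0.0012) and with BDNF at the same times (0.55 and 0.52, highest adjusted p = 0.027). Vps4b, an ATPase of the ESCRT machinery, fell with KCl at 1 h from 657 ± 21.7 to 423 ± 102 (-0.66, limma adjusted p = 6.54e-06).

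The FOXO list held the FOXO factors, known regulators of Txnip, and their other targets. Of its 20 genes, 5, 5 and 2 were higher and 5, 11 and 10 lower after 1, 6 and 10 h of BDNF, and 11, 8 and 5 were higher and 5, 6 and 8 lower with KCl. Over all genes, 21.3%, 22.1% and 21.1% were higher and 19%, 21.1% and 19.5% lower with BDNF. With KCl, 26.5%, 33.4% and 29% of all genes were higher and 28.2%, 33.1% and 28.2% lower. The counts lower with BDNF at 6 and 10 h and higher with KCl at 1 h lay above these shares. The count higher with BDNF at 10 h lay below its share. In those BDNF comparisons the median log2 fold change of the list was -0.241 and -0.225, beside -0.003 and -0.007 over all genes. With KCl at 1 h it was 0.229, beside 0.001. Pik3ip1, an inhibitor of PI3 kinase, fell in all 6 comparisons, from 511 ± 28.0 (SD, n = 6) to 299 ± 11.6 with BDNF at 1 h and 210 ± 1.87 with KCl at 1 h (log2 fold change -0.77 and -1.28, limma, highest adjusted p = 2.38e-06). Irs2, an adaptor of the insulin receptor, rose from 472 ± 50.6 to 2085 ± 261 with BDNF at 1 h and to 1155 ± 132 with KCl at 1 h (2.14 and 1.29, limma, highest adjusted p = 5.13e-09).

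**Figure D3:**
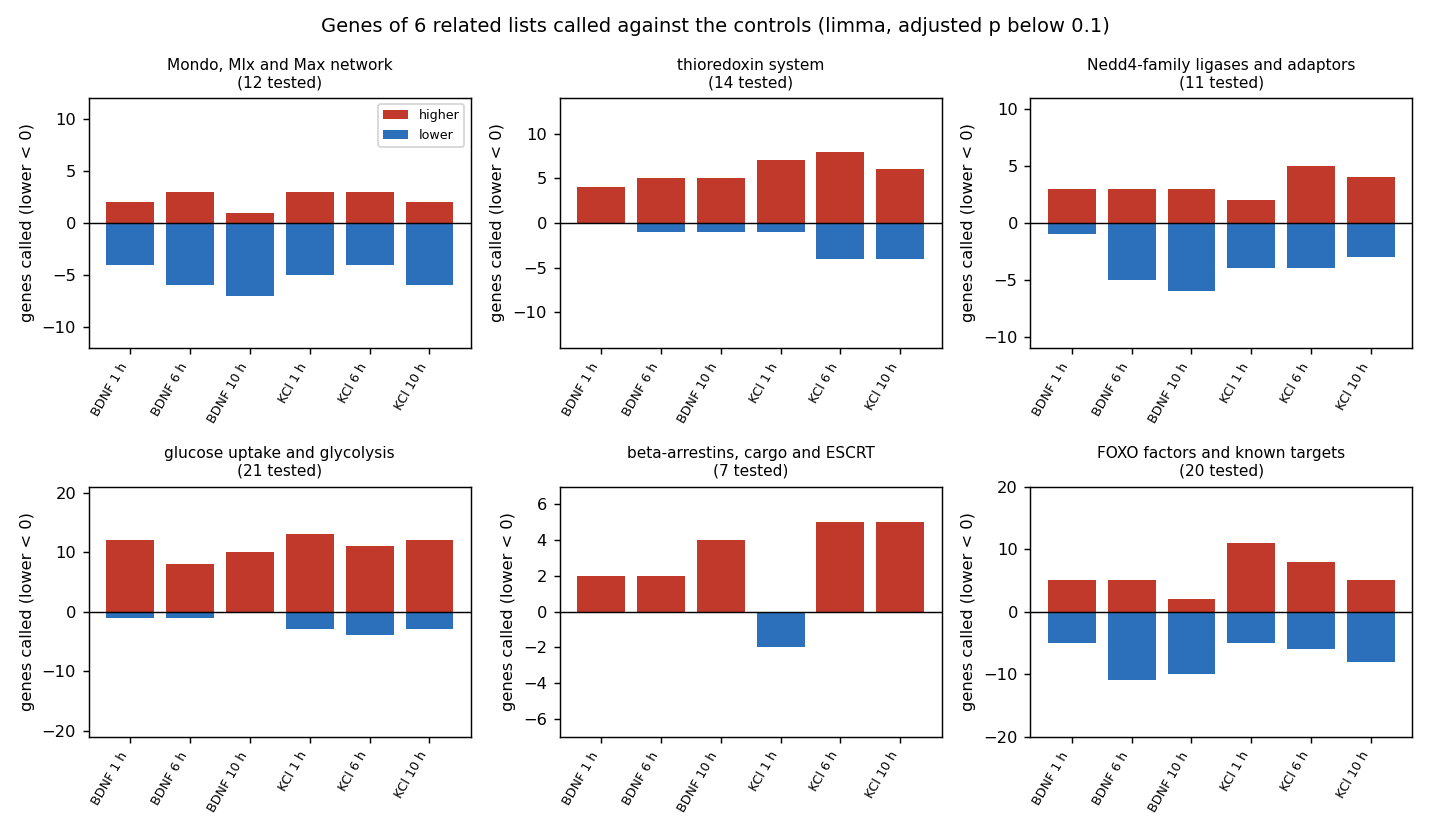
Number of genes (y axis) of 6 lists related to the members that were called higher (red, above 0) or lower (blue, below 0) against the 6 pooled controls in each of 6 comparisons (x axis), with the axis spanning the number tested. Glucose uptake and glycolysis has 8 to 13 of 21 genes higher and 0 to 4 lower, and the FOXO list has 2 to 11 of 20 higher and 5 to 11 lower.

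ATAC-seq, which measures the accessibility of chromatin to a transposase, gave 14 peaks within 50 kb of a member start for which that member was the nearest gene, or in a member's body. Every member had a promoter peak, and Arrdc3 had one at its first start and one at an inner start. Of the 14 peaks, edgeR called 1 with BDNF at 1 h (17.3% of 56383 tested peaks), 0 at 6 h (10.6%) and 0 at 10 h (9.36%), and with KCl 1 at 1 h (8.34%), 2 at 6 h (7.49%) and 2 at 10 h (7.87%). At BDNF 6 and 10 h none of the 14 had an unadjusted p under 0.05 in edgeR, beside 9831 and 9901 of the 56383 peaks. DESeq2 called 0 of the 14 there, beside 5668 and 5600 of all peaks. Between BDNF and KCl 1 peak was called at 1 h (14.9% of all peaks), 0 at 6 h (3.63%) and 0 at 10 h (1.99%). At 6 and 10 h 4 and 3 of the 14 peaks had an unadjusted p under 0.05, beside 8340 and 7355 of the 56383 peaks. DESeq2 called 0 and 1 of the 14, beside 1920 and 986 of all peaks.

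The Txnip promoter peak (chr3:96557445-96558142), which spans the sequence shown above, was called in no comparison while the RNA was low in all. Its scaled counts, corrected by the loess offsets, were 112 to 184 in the controls with a median of 128, 139 and 148 with BDNF at 1 h, and 134 and 139 with KCl at 1 h. The log2 fold change was 0.10 with BDNF at 1 h (95% interval -0.20 to 0.39) and 0.02 with KCl at 1 h (-0.27 to 0.31). With KCl at 6 h it was 0.33 (0.02 to 0.65, edgeR adjusted p = 0.26). Between BDNF and KCl at 6 h the log2 difference was -0.55 (95% interval -0.93 to -0.175, edgeR adjusted p = 0.12). A weak peak centred at base -2437 from the start (chr3:96555437-96555603) closed with BDNF at 1 h (log2 fold change -1.35 ± 0.51 SE, edgeR adjusted p = 0.062). It held 8 and 10 reads there, against 6 to 25 in the controls. The call ended with controls of the same time (-1.32, edgeR adjusted p = 0.16). That call ended without either BDNF 1 h library, either control 6 h library or the first control 1 h library (adjusted p = 0.11 to 0.48), and it was not made by DESeq2 (adjusted p = 0.15).

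At Arrdc3 the first promoter peak (chr13:80882804-80883476) was not called in any comparison with loess offsets, with log2 fold changes from -0.21 to -0.04 against the controls. With KCl at 10 h it was called with TMM scaling (-0.45, edgeR adjusted p = 0.0047) and with DESeq2 (-0.49, adjusted p = 0.0027). A small peak upstream of the start (chr13:80881830-80881979) closed with KCl at 1 h. Its scaled counts were 34.7 to 62.3 in the controls with a median of 47.8, 35.6 and 60.8 with BDNF at 1 h, and 20.4 and 26.0 with KCl at 1 h. The KCl libraries lay below all controls, and the log2 fold change was -1.06 ± 0.29 (SE, edgeR adjusted p = 0.016) with KCl and -0.01 ± 0.27 with BDNF. The difference between the stimuli was itself called (log2 difference 1.05 ± 0.34, edgeR adjusted p = 0.030). Without the second KCl 1 h library the adjusted p was 0.30 against the controls and 0.31 against BDNF, and without the first BDNF 1 h library the latter was 0.44. An intron peak (chr13:80884777-80884912) had 45.2 to 89.8 in the controls and 27.4 and 32.9 with KCl at 10 h, and closed with KCl at 6 and 10 h (log2 fold change -0.81 with a 95% interval of -1.40 to -0.23 and edgeR adjusted p = 0.096, and an interval of -1.56 to -0.44 at 10 h with adjusted p = 0.018). The call at 10 h ended without either KCl 10 h library (adjusted p = 0.26 and 0.11), and that at 6 h without either KCl 6 h library, either control 10 h library or the second control 1 h library (adjusted p = 0.11 to 0.50). With controls of the same time the intron call at 6 h also ended (log2 fold change -0.49, edgeR adjusted p = 0.55). The inner promoter peak (chr13:80885448-80886420) gave -0.24 with KCl at 1 h (95% interval -0.42 to -0.06, edgeR adjusted p = 0.11). It was called there with TMM scaling (-0.46, edgeR adjusted p = 0.00035) and with DESeq2 (-0.48, adjusted p = 7.47e-06). The same scalings also called it with BDNF at 1 h (-0.24 and -0.25) and with KCl at 10 h (-0.38 and -0.42). Between BDNF and KCl at 10 h they called it higher with BDNF (0.39, edgeR adjusted p = 0.064, and 0.40, DESeq2 adjusted p = 0.049). With loess offsets that difference was 0.21 (edgeR adjusted p = 0.43).

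**Figure D4:**
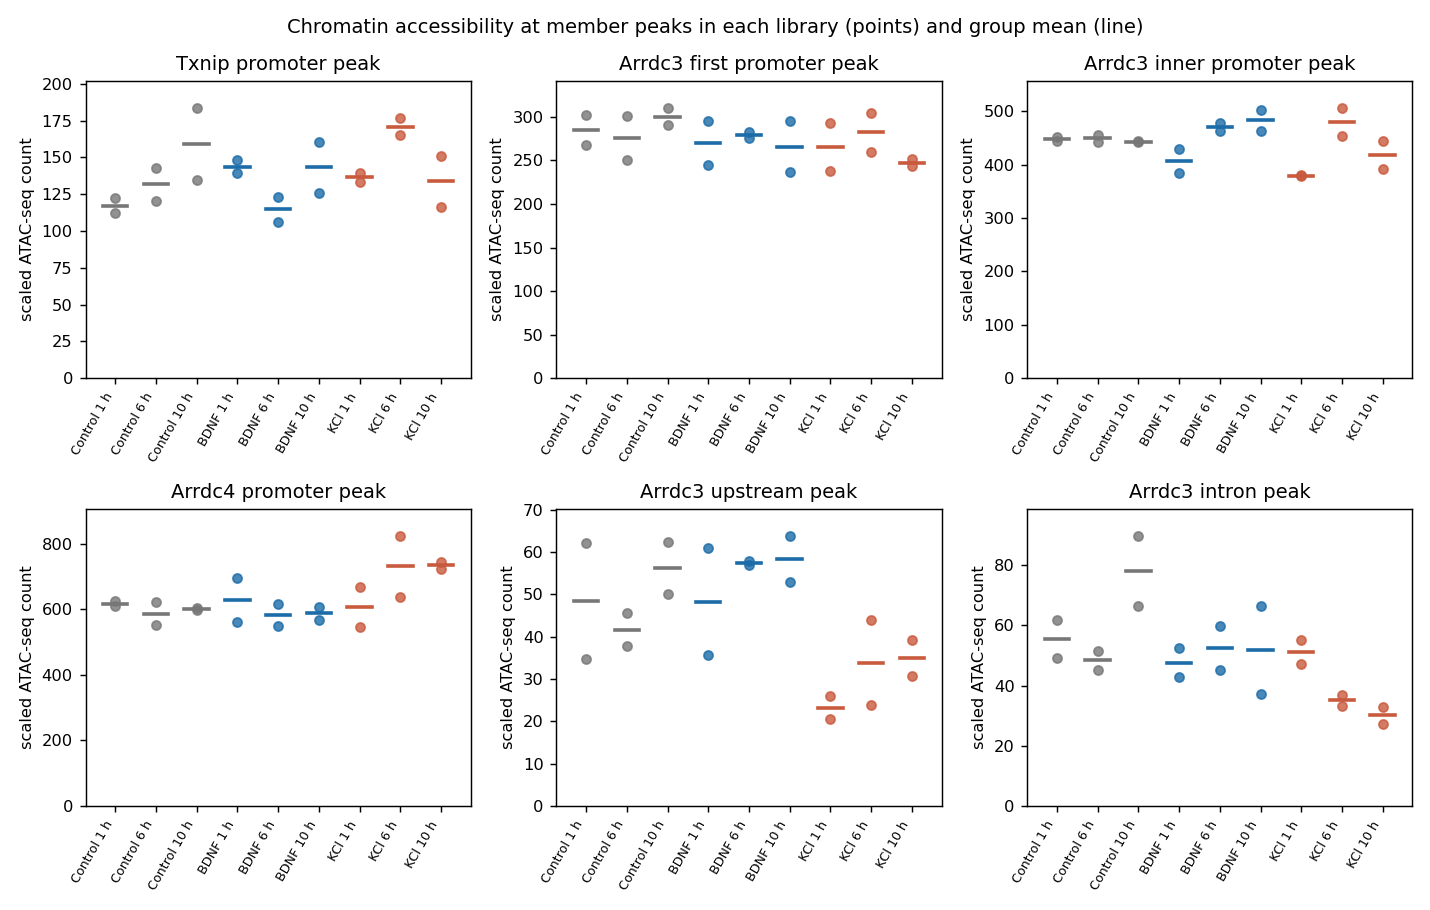
Scaled ATAC-seq counts (y axis, from 0; counts corrected by loess offsets) of 6 peaks at Txnip, Arrdc3 and Arrdc4 in each of 18 libraries (points), by group (x axis), with the group mean as a line. The Txnip promoter peak spans 106 to 184 over all libraries, with the highest value in a control, and the upstream and intron peaks of Arrdc3 are low with KCl at 1 h and with KCl at 6 and 10 h respectively.

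At Arrdc4 the promoter peak (chr7:68748942-68749685) held the most counts of the member peaks, at 550 to 624 scaled counts in the controls. It held 638 and 824 with KCl at 6 h and 723 and 744 with KCl at 10 h, above every control. It was called gained (log2 fold change 0.25 and 0.29, edgeR adjusted p = 0.089 and 0.026), whereas its RNA was lower in the same groups. With TMM scaling in place of the loess offsets the same values were -0.02 and -0.03, and with DESeq2 size factors they were -0.07 and -0.07, so the direction of this peak depended on the scaling. At KCl 1 h, where loess offsets gave 0.02, the peak was called closing with TMM (-0.26, edgeR adjusted p = 0.050) and with DESeq2 (-0.27, adjusted p = 0.053). With loess offsets and controls of the same time, neither gain was called (0.287 at 6 h and 0.292 at 10 h, edgeR adjusted p = 0.15 and 0.14). With loess offsets the call at 6 h ended without the second KCl 6 h, first control 6 h or second control 10 h library (adjusted p = 0.81, 0.16 and 0.105), and that at 10 h without either KCl 10 h library (adjusted p = 0.16 and 0.24). Over all peaks, the share of gained among called peaks with KCl at 1, 6 and 10 h was 63.4%, 72.6% and 75.1% with loess offsets and 50.6%, 57.9% and 54.3% with DESeq2 size factors, and it was 63.2% at 10 h with TMM scaling. Between BDNF and KCl at 10 h, 58.3% of called peaks were higher with BDNF with loess offsets and 72.7% with DESeq2 size factors. The promoter peaks of Arrdc1, Arrdc2 and Mlxip were called in no comparison with all libraries, although that of Arrdc2 was called with KCl at 6 h without the second control 1 h library (log2 fold change 0.27, edgeR adjusted p = 0.094). For Mlxip the log2 fold change at 1 h was -0.23 with BDNF (95% interval -0.54 to 0.08) and -0.16 with KCl (-0.46 to 0.13), while its RNA rose.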

How the data were processed

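RNA-seq and ATAC-seq libraries (18 each, 9 groups of 2) were analysed. Per the study's methods, the authors mapped RNA reads to mm10 with TopHat2 and the deposited RNA signal is read counts divided by DESeq2 size factors; 100% of values were whole reads within 0.01 once multiplied back, and edgeR on these reads called 6481 to 10794 genes against the controls. For ATAC-seq the authors mapped with Bowtie2, called peaks with MACS2 and joined them with DiffBind; the deposited ATAC-seq values are raw counts per consensus peak. Deposited columns of fold changes and p-values were not used, and of that table only the gene names were read. Here RNA values were tested as log2(value + 1) with limma 3.58.1 (trend, robust) over 7 levels with the 6 controls pooled and a mean of at least 10; control times came from a fit of 9 levels. Peaks were tested with edgeR 4.0.16 (quasi-likelihood, loess offsets), and DESeq2 1.42.0 served as an alternative. P-values were adjusted by Benjamini-Hochberg over the whole table and called below 0.1; all tests were two-sided. Intervals are the estimate ± 1.96 SE. The recovered RNA depth of 8.51 to 36.7 M reads and the ATAC-seq depth of 1.24 to 6.24 M limit the precision for low genes and peaks. The libraries were called biological replicates by the study; the p-values measure the spread between them. RNA columns carry letters that the sample labels do not explain, so columns were assigned to groups, not to single samples; first and second library stand for the letters, and in ATAC-seq for the order of equally named columns. Gene positions come from GENCODE M21 on GRCm38, the build of mm10. Symbols matched for 26203 of 26709 genes; of the 88 list genes, Gapdh was not analysed here, and genes under the minimum were not tested. The members, lists and tests were chosen with earlier results of these data known. Named genes were all members, the 2 list genes with the largest absolute change among those called against controls, the 5 genes most like Txnip and Arrdc3, and promoter or called peaks. Peaks went to a member within 50 kb of its start, or in its body, where no other protein-coding start was nearer. The scripts were tested on simulated data. Alternatives were edgeR or DESeq2 on recovered reads, TMM scaling, a pseudocount of 5, no filter, controls of the same time, a replicate block, nearer peak assignment and leaving out each library.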

Additional observations from a re-analysis of the deposited data

Results flagged for a closer look

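In Txnip 1 control library, the first at 10 h, lay apart from the other 5, at 519 normalised read counts (gap 0.63 of the range). At the Arrdc2 promoter peak 1 control library, the second at 1 h, lay apart at 533 scaled counts (gap 0.76). Of 20 groups of 6 controls tested in this way 2 stood out, and chance gives about 1 in 20.

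The difference between BDNF and KCl at the same time was called in limma for Arrdc1 (log2 difference -0.48 at 1 h, -0.81 at 6 h and -0.86 at 10 h), Arrdc2 (0.36, 0.67 and 0.53), Mlxip (-1.02 at 6 h and -0.61 at 10 h) and Arrdc4 (0.50 at 10 h). In edgeR it was called for the small peak upstream of Arrdc3 (1.05 at 1 h). In each case both libraries of one stimulus lay on one side of both libraries of the other, and the cause was not tested.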

How the results depend on the processing

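Of 278 recomputed counts of called members, list genes or peaks 241 stayed within 1.5 times. Among RNA members, DESeq2 on recovered reads called 1 between BDNF and KCl at 1 h and 1 between BDNF 6 h and 1 h. It called 6158 and 4859 of all 16209 genes there. Leaving out 1 library gave 1 to 3 with BDNF at 6 h against controls, and over 1 h 1 to 2 with BDNF at 6 h, 1 to 3 with BDNF at 10 h, and 1 to 3 with KCl at 6 and at 10 h. For BDNF 1 h, called member peaks were 2 with TMM scaling and 0 with controls of the same time. Over all 56383 peaks 10079 and 7537 were called there. For KCl 1 h called member peaks were 4 with TMM and 3 with DESeq2, beside 6200 and 4839 of all peaks. For KCl 6 h they were 1, 1 and 0 with TMM, DESeq2 and controls of the same time, beside 6527, 5640 and 2281. For KCl 10 h they were 1 with controls of the same time, beside 2085. Between BDNF and KCl at 10 h they were 1 with TMM and 1 with DESeq2, beside 1546 and 986. Without 1 library they were 0 to 1, 0 to 3, 0 to 2 and 0 to 2 for BDNF 1 h and KCl 1, 6 and 10 h, and 0 to 1 between the stimuli at 1 and 6 h. Reversed values were Txnip from KCl 1 h to 6 h (-0.114 without the second KCl 6 h library, 0.794 without the first) and the Arrdc4 promoter peak with TMM and DESeq2 (-0.257 and -0.272 with KCl at 1 h, both called, -0.023 and -0.071 at 6 h, -0.027 and -0.071 at 10 h). Causes were not tested beyond the changed scaling or sample number.

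Over all peaks with KCl at 10 h, 4440 were called with loess offsets, 7995 with TMM, 7242 with DESeq2 and 2085 with controls of the same time; at 6 h 4225, 6527 (TMM) and 2281 (same time); at 1 h 4705 and 2373, and with BDNF at 10 h 5276 and 2791. With BDNF at 10 h 6583 genes were called, and 4321 with controls of the same time. Differences between the letters in the RNA columns correlated over groups by -0.32 to 0.42, with a median of 0.065, above 0.1 in 13 of 36 pairs. These mixed values cannot settle whether the letters pair the libraries. With the letter as a replicate block the members called stayed at 4, 3 and 3 for BDNF and at 3, 4 and 4 for KCl in order of time, and no other member call changed. No paired analysis was possible for ATAC-seq because its columns carry no replicate number. Peaks within 10 kb or in the body gave the same counts. Depth limits the peaks outside promoters, which hold 4 to 98 reads a library.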
